A study of Zea mays with 12 samples.

Results

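Dry maize seeds carry mRNA that was made while the seed matured on the ear. This stored mRNA survives desiccation and is the template for the first proteins made after water is taken up, before new transcription takes over. In cereals the embryo and the aleurone are alive in the dry grain, whereas the starchy endosperm dies during maturation. The stored pool was described here over the 6 libraries taken from whole seeds at 0 h after imbibition (HAI), of 12 libraries in the series. The libraries were chosen by their labelled time alone, and both genotypes were pooled, without a test between them.

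The study asked how ZmEREB92, an ethylene-responsive transcription factor, acts in seed germination. The 0 h libraries came from *ereb92* seeds, a knockout line (*ereb92-6*) made by CRISPR/Cas9 in the KN5585 background, and from wild-type KN5585 seeds, with 3 libraries each. The other 6 libraries came from the same genotypes (3 each) at 6 HAI at 28°C in the dark and served here only for comparison. The mutant group was 1 line, and the sources used here do not say how many seeds or ears made up a library. Since whole seeds were extracted in bulk, fewer cells of a type and less RNA per cell cannot be told apart. The RNA was selected for poly(A) tails, so transcripts without one were largely left out.

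The 6 libraries at 0 h held 13445201 to 15299334 counts, reads assigned to genes, and those at 6 h held 12771663 to 15383586. An abundance of 3 counts, taken as the least that can be told from 0, equalled 0.196 to 0.223 counts per 1000000 counts (CPM) at 0 h. For the shares of 0.1% or more given below, the 95% Wilson interval of a single library reached at most 1.70% of the value to either side, which covers counting error only. *ZmEREB92* itself (Zm00001d000339) had 126, 17 and 82 counts in *ereb92* and 96, 25 and 27 counts in KN5585 at 0 h, and it ranked 15185 by mean share of counts. The table places this identifier on an unplaced contig, and the study notes that the locus is missing from its chromosome in the build used. Transcripts of an edited gene can still be counted, so these values do not check the genotype labels. The study describes its replicates as biological and the experiments as independent. The sources do not say whether replicate libraries came from separate ears, so p-values measure only the spread between these samples. That spread was far larger than counting error for the abundant genes described here. Among the 100 genes with the highest mean share, the median coefficient of variation (CV) over the 6 libraries was 30.9%, against a median of 0.642% from counting alone.

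The seed identity of the libraries was checked with tissue markers. The 5 embryo markers (*globulin1*, *globulin2*, *oleosin1*, *oleosin3* and *embryo specific protein5*) were detected in all 6 libraries and together took 3.25 to 10.6% of the counts (median 5.34%). The 37 starchy endosperm markers, zeins and genes of starch and opacity, took 0.0237 to 0.0902% in all, and 16 of them had at least 10 counts in every 0 h library. Zeins, which are the main storage proteins of the endosperm, took little of the counts. How reads that fit several genes were counted is not stated, so sums over alike zein copies may be too low. The 18 zein genes together held 0.00522 to 0.0572% of counts, and the highest single value was that of KN5585 replicate 2. The most abundant of them, the *27-kDa zein protein* gene (Zm00001d020592), had 0.00174, 0.00353 and 0.00290% in *ereb92*, against 0.00605, 0.0201 and 0.00408% in KN5585. Of 22 green leaf markers, 6 had no count in any 0 h library, both *ribulose bisphosphate carboxylase small subunit* genes among them, and all 22 together stayed at or under 0.00415%.

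Libraries also differed in measures that are not single genes. KN5585 replicate 1 had the most reads on short genes and on rRNA. In it, genes under 1000 bases held 34.3% of its counts, against 24.9 to 32.5% in the others, and the length of the gene that a median count fell on was 1315 bases, against 1404 to 1683. Annotated rRNA genes took 0.477% of its counts, against 0.0159 to 0.0222%. Starchy endosperm markers were highest in KN5585 replicate 2, with 0.0902% against 0.0237 to 0.0340%. The part of these differences in the gene shares below was not tested.

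The pool was broad. A mean of 22392 ± 1051 genes (SD, n = 6) had at least 10 counts in a 0 h library, and the lowest and highest libraries had 20749 and 23631. Of the 55529 genes of the table, 27598 reached 10 counts in at least 1 of the 6 libraries and 18014 (32.4%) reached it in all 6, while 18022 had no count in any. These 18014 genes, the common set, held 97.8 to 98.9% of the counts of each library. They included 16546 of 39591 protein-coding genes (41.8%), but 61 of 2532 annotated long intergenic non-coding RNAs and 1367 of 9099 transcripts that the authors assembled outside the annotation. With KN5585 replicate 1 left out, 18935 genes reached 10 counts in all the others. A further 2952 genes reached 10 counts in exactly 1 library.

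At the same time a few genes took much of it. The 10 most abundant genes of a library, taken anew in each, held 12.3, 19.5 and 12.1% of the counts in the *ereb92* libraries and 20.5, 14.6 and 18.5% in the KN5585 libraries (mean 16.3% ± 3.71). In all, 50% of the counts fell on 254 to 682 genes, and 90% on 5984 to 7747. The most concentrated library was KN5585 replicate 1, in which 254 genes held 50% of the counts, and the least concentrated was *ereb92* replicate 1, with 682. Per length, the contrast was sharper, by FPKM (fragments per kilobase of gene and per 1000000 of the library size that the authors used). The 90 genes with a mean of at least 1000 FPKM held 50% of the summed FPKM and 31.0% of the counts. Their median length was 803.5 bases, against 1046 bases for the 865 genes of 100 to 1000 FPKM, 1602 bases for the 6067 genes of 10 to 100 FPKM, 1848 bases for the 13225 genes of 1 to 10 FPKM and 1109 bases for the 17260 counted genes under 1 FPKM. The 13225 genes of 1 to 10 FPKM made up 13% of the counts.

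**Figure D1:**
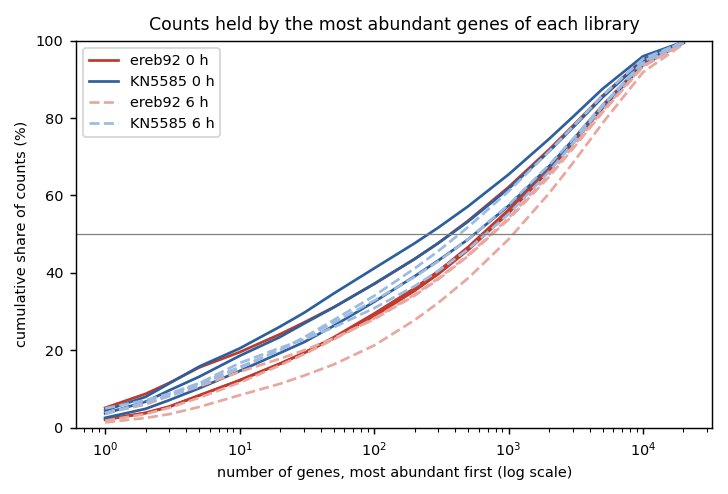
Cumulative share of counts (%) against the number of genes, most abundant first, on a log scale, with 1 line per library. Solid lines are 0 h and dashed lines 6 h, red *ereb92* and blue KN5585. At 0 h the lines crossed 50% between 254 and 682 genes, and at 6 h between 433 and 1088.

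The breadth and the concentration of the stored pool were set against the imbibed seeds. After every library was thinned to the smallest total, 12771663 counts, 21910 ± 909 genes had at least 10 counts at 0 h and 22573 ± 1195 at 6 h (SD, n = 6 each), and the ranges overlapped (20572 to 23117 and 21245 to 24462). The difference, 0 h minus 6 h, was -662.5 genes and did not pass the test (p = 0.26, two-sided exact permutation of the time labels within genotype). It was -1540 genes in *ereb92* and 215 in KN5585. The top 10 genes held 16.3% ± 3.71 of the counts at 0 h and 13.7% ± 3.13 at 6 h, a difference of 2.57 percentage points (p = 0.165, same exact test). By the share of the summed FPKM that difference was 4.57 points (exact p = 0.035), and for the 100 most abundant genes it was 5.16 points of counts (exact p = 0.035). Without KN5585 replicate 2 at 0 h the difference for the top 10 was 3.38 points (exact p = 0.045), and without *ereb92* replicate 2 at 0 h it was 1.35 points (exact p = 0.335). Of the common set at 0 h, 16485 genes (91.5%) had at least 10 counts in all 6 h libraries too, which was 95.1% of the 6 h set, and 2 genes of it were below 10 counts in every 6 h library.

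Transcripts for proteins of seed drying and of the embryo's reserves led the list of single genes. *Dehydrin1* (Zm00001d037894, chromosome 6, 141324495 to 141325549 in B73 RefGen_V4) had the highest mean share, 2.57% ± 0.666 of the counts (SD, n = 6). Dehydrins are hydrophilic late embryogenesis abundant (LEA) proteins that accumulate as the embryo dries. Its share was 2.08, 2.78 and 1.70% in the *ereb92* libraries and 3.51, 2.32 and 3.05% in the KN5585 libraries. *Oleosin1* (Zm00001d002768, chromosome 2, 22071813 to 22072283), whose protein coats the oil bodies of the scutellum, followed with 2.56% ± 0.878. It took 1.41, 3.63 and 1.66% in *ereb92*, against 3.24, 2.53 and 2.92% in KN5585, and per length it was the most abundant gene of all, at 57928 ± 25329 FPKM. *Metallothionein2* (Zm00001d029778, chromosome 1, 86529694 to 86530424), which encodes a small cysteine-rich metal-binding protein, came next with 2.49% ± 1.38. It held 1.75, 2.82 and 1.33% in the *ereb92* libraries and 4.44, 0.936 and 3.65% in the KN5585 libraries, so KN5585 replicate 2 was the lowest of all and KN5585 replicate 1 the highest.

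The genes that followed also spread widely among libraries. *Globulin2* (Zm00001d034413, chromosome 1, 292247305 to 292249329), an embryo storage protein gene, had 1.02, 5.11 and 1.60% in *ereb92*, against 1.05, 1.09 and 1.53% in KN5585. One library, *ereb92* replicate 2, thus held more than the others by a wide margin, and the rest lay between 1.02 and 1.60%. *Globulin1* (Zm00001d033447), a related vicilin-like storage protein gene, had 0.315, 1.20 and 0.625% in *ereb92*, against 0.892, 0.710 and 0.723% in KN5585, again highest in that library. *Chitinase A1* (Zm00001d003190, chromosome 2, 35066062 to 35067313), for an enzyme that cuts chitin of fungal walls, took 0.132, 0.378 and 0.771% in *ereb92*, against 3.47, 2.25 and 1.99% in KN5585. The 3 *ereb92* libraries were all lower than the 3 KN5585 libraries for this gene. In CPM scaled by TMM factors (a scaling that offsets differences in RNA make-up), it and 1 *seed maturation protein* gene (Zm00001d026037) had no overlap between genotypes, 2 of the 20 most abundant genes, whereas 17.5% of the 11001 genes with a mean of at least 10 CPM had none.

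Further down, *embryo specific protein1* (Zm00001d037988) held 1.44% ± 0.416. A homolog of SUI1 (*translation initiation factor1*, Zm00001d021668), the factor that helps the ribosome choose the start codon, held 1.07% ± 0.203, the highest share of any gene of the translation machinery. It had 1.17, 0.780 and 1.14% in *ereb92*, against 1.10, 0.878 and 1.33% in KN5585. In TMM-scaled CPM its CV was 22.6%, against 19.4% for *embryo specific protein1*. The gene described as a protein induced upon tuberization (Zm00001d040292) held 1.45, 0.0694 and 0.155% in *ereb92*, against 0.387, 1.37 and 1% in KN5585. In this gene 2 *ereb92* libraries were low and the other was the highest of all. *Responsive to abscisic acid30* (Zm00001d027740, described as Rab28), an LEA gene induced by abscisic acid, had 0.587% ± 0.138, *ubiquitin1* (Zm00001d015327) 0.461% ± 0.0958, and *1-Cys peroxiredoxin PER1* (Zm00001d022278), a seed antioxidant, 0.354% ± 0.119. *Zinc finger protein1* (Zm00001d046767), annotated with an A20-type zinc finger, was the only one of the 20 with a CV under 15% in TMM-scaled CPM, 14.3%, and held 0.568, 0.464 and 0.465% in the *ereb92* libraries and 0.376, 0.380 and 0.383% in the KN5585 libraries. By share the 3 *ereb92* libraries were all higher, whereas in TMM-scaled CPM the genotypes overlapped.

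**Figure D2:**
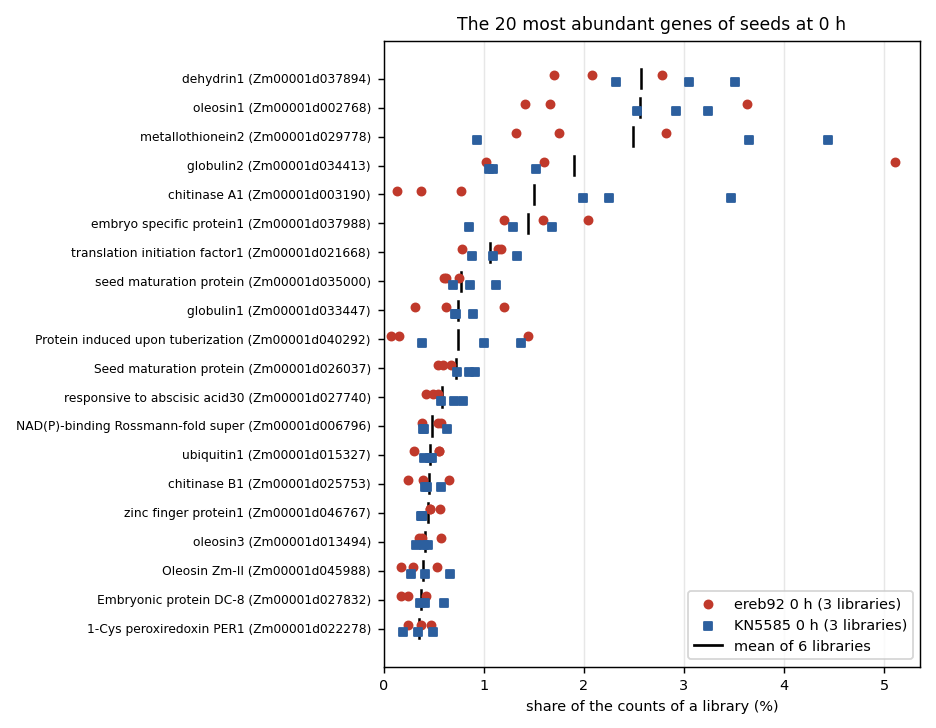
Share of the counts of a library (%, linear axis from 0) for the 20 genes with the highest mean share at 0 h, with a red circle for each *ereb92* library, a blue square for each KN5585 library and a black bar at the mean of all 6. *Dehydrin1* leads at 2.57%, and the single value of 5.11% is *globulin2* in *ereb92* replicate 2.

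The order of the list was only partly shared by the libraries. Of the 100 most abundant genes of each library, 64 were in the list of all 6 and 144 were in at least 1, and any pair of libraries shared 73 to 92. Across the 18014 genes of the common set, log2(CPM + 1) correlated between libraries with a Pearson r of 0.913 to 0.965 within genotypes (6 pairs) and 0.899 to 0.945 between them (9 pairs), given as a description across genes. The mean top 100 of 0 h and of 6 h shared 89 genes, and 43 genes were in the top 100 of all 12 libraries. By share at 6 h, *dehydrin1* stood at 1.55% ± 0.194, *oleosin1* at 1.94% ± 0.898, *metallothionein2* at 2.30% ± 1.06 and *globulin2* at 2.39% ± 1.62 (SD, n = 6). These genes were chosen for their level at 0 h, so no test was made on them.

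The names and descriptions in the deposited table were searched for key words, which put each gene in 1 of 22 classes. A class is thus only as good as its descriptions. The classes for desiccation and reserves were small in genes and large in reads. LEA proteins and dehydrins, 134 genes, held 7.57% ± 1.55 of the counts at 0 h (SD, n = 6), namely 5.98, 7.40 and 5.95% in the *ereb92* libraries and 9.93, 7.52 and 8.67% in the KN5585 libraries. The genes of the class numbered 15 among the 100 most abundant genes, and 13.6% of the summed FPKM. Within the class the reads were concentrated: 3 genes made up 50% of them, *dehydrin1* alone 34%, and 51 of the 134 had no count at 0 h. After *dehydrin1* came the *seed maturation protein* genes Zm00001d035000 with 0.775% ± 0.193 and Zm00001d026037 with 0.719% ± 0.145. Both are short, and in FPKM they reached 21073 ± 8259 and 21953 ± 5401. Others of this kind were the embryonic protein DC-8 gene Zm00001d027832 (0.369% ± 0.151), the LEA14 gene Zm00001d009700 (0.333% ± 0.0790) and the LEA protein 3 gene Zm00001d017021 (0.328% ± 0.0531).

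Oil body proteins, 11 genes, held 4.03% ± 1.08 of the counts and 9.09% of the summed FPKM. All but 1 of the 11 were in the common set, and *oleosin1* took 63.7% of the class. *Oleosin3* (Zm00001d013494) followed with 0.413% ± 0.0897, and the other gene described as oleosin Zm-II (Zm00001d045988) had 0.392% ± 0.183, with 0.536, 0.292 and 0.172% in *ereb92*, against 0.663, 0.274 and 0.416% in KN5585. Storage proteins, 32 genes, held 2.97% ± 1.88, namely 1.48, 6.72 and 2.47% in the *ereb92* libraries and 2.36, 2.15 and 2.61% in the KN5585 libraries. *Globulin2* made up 64.1% of that, and 12 of the 32 genes were in the common set. The storage protein share without *ereb92* replicate 2 ran from 1.48 to 2.61%. In the library left out the summed embryo markers, which include both globulins and 2 oleosins, were also highest, at 10.6%. The 9 metallothionein genes held 2.78% ± 1.48, of which *metallothionein2* was 89.6%. The next gene, *metallothionein-like protein 2A* (Zm00001d008620), had 0.265% ± 0.111. Together these 4 classes, 186 genes, held 17.3% ± 4.73 of the counts, between 12.2 and 22.5%.

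Transcripts for making and folding proteins made up further large shares. Cytosolic ribosomal proteins, 518 genes with 331 in the common set, held 4.85% ± 0.741, and 43 genes were needed to reach 50% of the class, against 6 genes for translation factors and 11 for chaperones. The highest, *60S acidic ribosomal protein P0* (Zm00001d035201), had 0.165% ± 0.0455, only 3.40% of it. Translation factors, 248 genes, held 2.74% ± 0.341, of which the SUI1 homolog was 39.0%. An *elongation factor 1-beta* gene (Zm00001d022134) had 0.0873% ± 0.0205, and the most abundant elongation factor 1-alpha gene (Zm00001d037877) 0.0636% ± 0.0319, with 0.109, 0.0875 and 0.0742% in *ereb92*, against 0.0267, 0.0387 and 0.0450% in KN5585. Those *ereb92* values were all above the KN5585 ones. Heat shock proteins and chaperones, 352 genes, held 2.97% ± 0.143, the steadiest of the 22 shares, with a CV of 4.82%. Single members were less steady. The *16.9 kDa class I heat shock protein 1* gene (Zm00001d039933), a small chaperone that keeps other proteins soluble, had 0.154, 0.306 and 0.197% in *ereb92*, against 0.655, 0.236 and 0.377% in KN5585, whereas *chaperone DNA J2* (Zm00001d033210) had 0.248, 0.241 and 0.318% in *ereb92*, against 0.170, 0.173 and 0.190% in KN5585. The *heat shock protein 90-2* gene (Zm00001d006008) had 0.166% ± 0.0472.

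Protein turnover, defence and detoxification came next. Ubiquitin and proteasome genes held 3.48% ± 0.307, led by the polyubiquitin gene *ubiquitin1* and by *ubiquitin-60S ribosomal protein L40-1* (Zm00001d005334, 0.141% ± 0.0338). Defence proteins and enzyme inhibitors held 3.02% ± 1.55, namely 1.12, 2.09 and 2.15% in the *ereb92* libraries and 5.47, 3.79 and 3.52% in the KN5585 libraries. *Chitinase A1* alone made up 49.6% of the class. *Chitinase B1* (Zm00001d025753) had 0.451% ± 0.144 and *cystatin4* (Zm00001d008268), for an inhibitor of cysteine proteases, 0.188% ± 0.0301. Antioxidant and detoxification enzymes held 2.05% ± 0.146, with *glutathione transferase23* (Zm00001d020780) at 0.105% ± 0.0138 behind the peroxiredoxin.

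Enzymes for using the reserves were already represented, but the key words of the sugar class also take in enzymes of synthesis. The class of lipid breakdown and the glyoxylate cycle held 1.27% ± 0.154, and *malate synthase1* (Zm00001d003247), a glyoxylate cycle enzyme used when seedlings turn oil into sugar, had 0.285% ± 0.0806. *Lipoxygenase3* (Zm00001d033623), for an enzyme that oxidizes fatty acids, had 0.149% ± 0.05, and the peroxisomal *citrate synthase 3* gene (Zm00001d016248) 0.0765% ± 0.00498, between 0.0719 and 0.0859% in all libraries. Glycolysis, starch and sugar enzymes held 1.69% ± 0.154. Its leading genes were a *stachyose synthase* gene (Zm00001d019163, 0.213% ± 0.0554), for a step in the making of raffinose-type oligosaccharides, and *beta amylase2* (Zm00001d027619, 0.199% ± 0.0487), for an enzyme that releases maltose from starch. Respiratory chain and ATP synthase genes of the nucleus held 0.978% ± 0.0996, and membrane transport and aquaporin genes 1.58% ± 0.199. Among transport genes the tonoplast aquaporins *TIP1-1* (Zm00001d027652, 0.334% ± 0.107) and *tonoplast intrinsic protein3* (Zm00001d013956, 0.148% ± 0.0561) were highest. These form water channels in the vacuole membrane. Histones held 0.754% ± 0.0966, with 2 histone H1 genes on top.

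Reads of transcription factors were spread over many genes. The class, 2674 genes, held 3.51% ± 0.295, and 107 genes were needed for 50% of that. In the common set were 1120 of them (41.9%), near the 41.8% of all protein-coding genes. The highest was *NAC-transcription factor 49* (Zm00001d034601) with 0.158% ± 0.0414, followed by *NLP-transcription factor 9* (Zm00001d025757) with 0.0783% ± 0.00959 and *double B-box zinc finger protein5* (Zm00001d014765) with 0.0758% ± 0.0168. By the protein domain that the deposited table names, the 212 genes with an AP2 domain, the family of *ZmEREB92*, held 0.354% ± 0.0365 at 0 h and 0.706% ± 0.431 at 6 h. For NAM domains (NAC proteins) the values were 0.300% ± 0.05 and 0.436% ± 0.170, and for WRKY domains 0.0745% ± 0.00852 and 0.199% ± 0.118, in the same order of times. Heat shock factors held 0.183% ± 0.00609 and 0.180% ± 0.0135. The B3 domain genes held 0.0440% ± 0.00915, and *viviparous1* (Zm00001d042396), the activator of the seed maturation programme, was the highest of them at 0.0118%. These 5 domains were picked after the values were seen, and no test was made on them. Kinases and phosphatases, 2311 genes, held 3.01% ± 0.272, and RNA binding and splicing genes 2.32% ± 0.298, led by *responsive to abscisic acid15* (Zm00001d013568, 0.335% ± 0.0900), a glycine-rich RNA-binding protein gene.

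The remaining counts fell on genes of other kinds. Other described genes, 21456 in number, held 40.3% ± 3, genes without a description 5.78% ± 0.445 and transcripts assembled by the authors 2.29% ± 0.449. Of the 13955 genes without a description, 1659 were in the common set and 5 were among the 100 most abundant. Transcripts of the mitochondrial and plastid genomes held 0.101% ± 0.119, with 0.0481, 0.0689 and 0.0631% in the *ereb92* libraries and 0.342, 0.0484 and 0.0325% in the KN5585 libraries. KN5585 replicate 1 stood apart, and 1 gene, the mitochondrial 26S ribosomal RNA (ZeamMr002), accounted for 0.260% in that library, against 0.00716 to 0.0119% in the rest.

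In shares of counts, 3 of the 22 classes (13.6%) had *ereb92* and KN5585 libraries that did not overlap at 0 h. They were LEA proteins and dehydrins, defence proteins and enzyme inhibitors, and membrane transport and aquaporin genes. The LEA and defence classes were lower in the 3 *ereb92* libraries, and the transport class, with 1.78, 1.56 and 1.84% in *ereb92*, against 1.46, 1.51 and 1.31% in KN5585, was higher. These shares were not scaled by TMM factors, which ran from 0.827 in KN5585 replicate 1 to 1.12 in *ereb92* replicate 1. Such scaling can undo a lack of overlap, as it did for *zinc finger protein1*. With the genotypes pooled, no test was made of these classes.

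**Figure D3:**
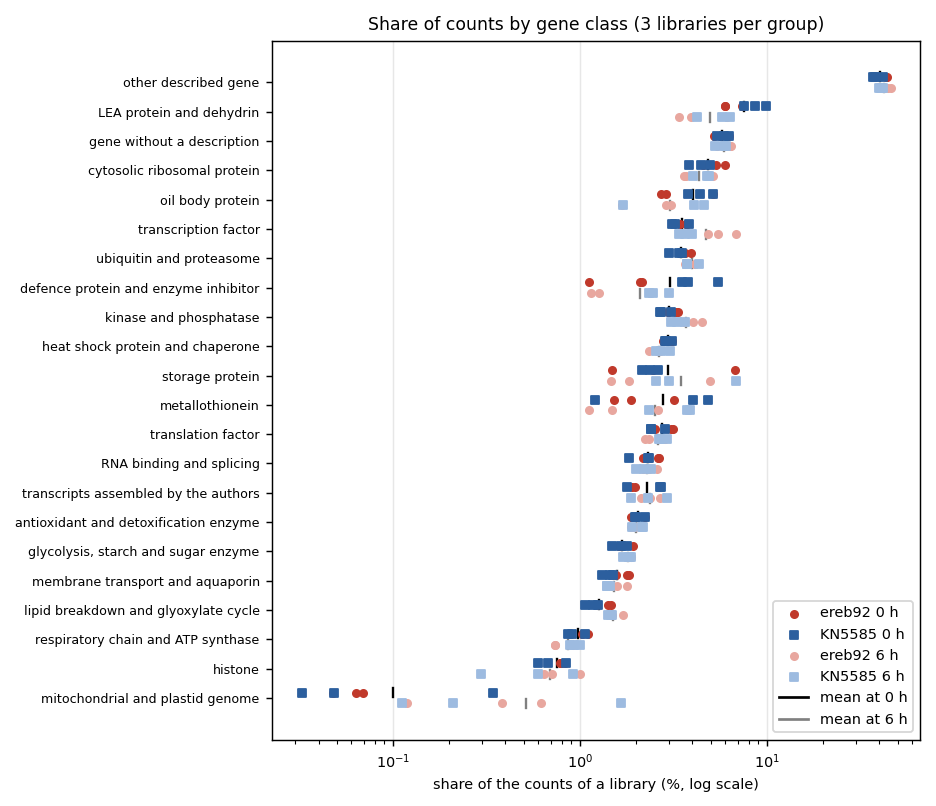
Share of the counts of a library (%, log scale) for the 22 gene classes, ordered by their mean at 0 h, with 0 h libraries in the upper part of each row and 6 h libraries in the lower part (red circles *ereb92*, blue squares KN5585, pale colours 6 h, bars the means of 6). The 0 h and 6 h points overlap in every class, and the mitochondrial and plastid genome shows the widest scatter on this scale.

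None of the 22 class shares passed the test between 0 h and 6 h (0 of 22, 0%, at a Benjamini-Hochberg adjusted p under 0.05, two-sided exact permutation of the time labels within genotype, which cannot give a p under 0.005). At an unadjusted p under 0.05 there were 6 of 22 (27.3%). LEA proteins and dehydrins had 7.57% ± 1.55 at 0 h and 4.95% ± 1.26 at 6 h (difference 2.62 percentage points, unadjusted exact p = 0.015, adjusted p = 0.11). Their share was 3.38, 3.93 and 6.13% in *ereb92* and 4.21, 5.73 and 6.33% in KN5585 at 6 h, so the times overlapped. Heat shock proteins and chaperones had 2.97% ± 0.143 at 0 h and 2.65% ± 0.225 at 6 h (difference 0.319 percentage points, unadjusted exact p = 0.03, adjusted p = 0.11). These were the classes with the higher mean at 0 h, and the other 4 had the lower mean. Kinases and phosphatases had 3.01% ± 0.272 at 0 h and 3.70% ± 0.516 at 6 h (difference -0.693 percentage points, unadjusted exact p = 0.005, adjusted p = 0.11). That difference had the smallest p the test can give. Lipid breakdown and the glyoxylate cycle had 1.27% ± 0.154 at 0 h and 1.5% ± 0.0990 at 6 h (difference -0.234 percentage points, unadjusted exact p = 0.01, adjusted p = 0.11). Transcription factors had 3.51% ± 0.295 at 0 h and 4.70% ± 1.31 at 6 h (difference -1.19 percentage points, unadjusted exact p = 0.02, adjusted p = 0.11), with a difference of -2.10 points in *ereb92* and -0.286 in KN5585. Ubiquitin and proteasome genes had 3.48% ± 0.307 at 0 h and 3.95% ± 0.285 at 6 h (difference -0.477 percentage points, unadjusted exact p = 0.025, adjusted p = 0.11). For storage proteins the difference was 0.793 points in *ereb92* and -1.77 in KN5585, and for metallothioneins the mean difference was 0.242 points (exact p = 0.725).

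Some of the most abundant genes spread widely among libraries. Of the 200 genes with the highest mean share, the 10 with the highest CV (from 85.9 to 208%, on TMM-scaled CPM) included *globulin2*, *chitinase A1* and ZeamMr002. These 10 were picked for their CV over these same libraries, so their spread is a description only. A gene can also enter the 200 through 1 high library. ZeamMr002 had 0.260% in KN5585 replicate 1, against 0.00716 to 0.0119% in the rest. KN5585 replicate 1 was the highest library in 8 of the 10 and in 84 of the 200. Across all 11001 genes with at least 10 CPM that library was the highest in 28.6% and the lowest in 22.1%. *Stress-induced protein1* (Zm00001d021901) had 0.0295, 0.107 and 0.0572% in *ereb92*, against 0.354, 0.0656 and 0.0735% in KN5585. *Phospholipid transfer protein homolog1* (Zm00001d023343), for a protein that carries lipids, had 0.0808, 0.238 and 0.112% in *ereb92*, against 0.627, 0.199 and 0.142% in KN5585. The *lactoylglutathione lyase* gene (Zm00001d037637), for an enzyme that removes methylglyoxal, had 0.0468, 0.0742 and 0.101% in *ereb92*, against 0.281, 0.0775 and 0.0717% in KN5585. The neighbouring genes *defensin-like protein1* (Zm00001d024303) and *defensin-like protein2* (Zm00001d024302), which encode small antimicrobial peptides, were at 0.171 and 0.148% in KN5585 replicate 1. In the other 5 libraries they were at 0.0334 to 0.0719% and 0.0251 to 0.0528%.

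A set of 2537 genes was stable, with a CV under 15% over the 6 libraries and a mean of at least 10 CPM. That was 23.1% of the 11001 genes at that level, whose median CV was 22.2% (10% of them under 11.4%, 10% over 48.3%). The CV just inside the limit was 14.9946% and the one just outside 15.0004%. The stable genes held 18.6% of the counts and had a median of 13.4 FPKM, against 13.3 FPKM for all genes at that level. Of the 100 most abundant genes, 12 were stable, and of the 1000 most abundant, 261 were. Without KN5585 replicate 1 there were 3448 stable genes, 2312 of the 2537 among them, and with total counts in place of TMM factors there were 1796, which shared 1109 with the 2537. The 6 h libraries, which had no part in the choice, gave a median CV of 22.2% for the stable genes and 29.9% for all genes at that level. Under 15% at 6 h were 444 of the stable genes (17.5%) and 979 of all (8.90%).

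Stable genes were unequally shared among the classes, which were not tested against the 23.1% of all 11001 genes. RNA binding and splicing genes had 119 of 323 (36.8%) stable, translation factors 52 of 146 (35.6%), ubiquitin and proteasome genes 142 of 414 (34.3%) and cytosolic ribosomal proteins 92 of 296 (31.1%). LEA proteins and dehydrins had 1 of 43 (2.33%), defence proteins and enzyme inhibitors 2 of 49 (4.08%), oil body proteins 1 of 10 (10%), and storage proteins and metallothioneins 0 of 9 and 0 of 6. The oil body, storage protein and metallothionein classes have too few genes at that level to be set against the share of all. The median CV was 84.7% for storage proteins, 34.4% for LEA proteins and dehydrins and 16.9% for RNA binding and splicing genes. Transcripts assembled by the authors had a median of 44.1%. Among the 200 most abundant genes, the 5 steadiest were an *RS2Z32* splicing factor gene (Zm00001d035552, CV 8.31%), *ubiquitin conjugating enzyme4* (Zm00001d001913, 8.32%), *glutathione transferase23* (8.90%), another ubiquitin-conjugating enzyme gene (Zm00001d010618, 9.06%) and the *40S ribosomal protein S3-1* gene (Zm00001d049500, 9.11%). *Ubiquitin conjugating enzyme4* had 565, 561 and 589 CPM in the *ereb92* libraries and 459, 529.7 and 548 CPM in the KN5585 libraries. For this gene too the *ereb92* values were all higher, and its CV at 6 h was 11.2%.

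The 15 lowest CVs of all ran from 1.42 to 3.52%, and 12 of the 15 were below what counting error alone would give, so the depth cannot rank these genes. The first was a *heat shock protein 4* gene (Zm00001d037700), with 51.1, 50.6 and 50.7 CPM in the *ereb92* libraries and 50.6, 51.4 and 52.5 CPM in the KN5585 libraries. The others included *protein mago nashi homolog* (Zm00001d049723), a part of the exon junction complex, with 180.1, 181 and 178 CPM in the *ereb92* libraries and 175, 184 and 192 CPM in the KN5585 libraries, *thiamine synthesis3* (Zm00001d041829), the histone acetyltransferase gene *HAC1* (Zm00001d015209) and a *chaperonin 60 subunit beta 2* gene (Zm00001d045544). At 6 h the CVs of these 15 genes were 11.0 to 30.5% (median 17.4%), and 5 stayed under 15%.

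Genes used as references for qPCR were placed on this scale. *ZmEF1a* (Zm00001d009870, chromosome 8, 86257136 to 86260258), the elongation factor 1-alpha gene that the study used, had 295, 336 and 318 CPM in the *ereb92* libraries and 243, 259 and 278 CPM in the KN5585 libraries, a CV of 12.3%, and it was among the stable genes. The *ereb92* values all lay above the KN5585 values. Of the 11001 genes with a mean of at least 10 CPM, 17.5% likewise had no overlap between genotypes. At 6 h the CV of *ZmEF1a* was 8.51%. Among the elongation factor 1-alpha genes, 3 of 9 with at least 10 CPM were stable and the CVs ran from 12.3 to 70.1%. Copies of this family are alike, and how reads that fit several genes were counted is not stated, so the split among copies is uncertain. Over all 11001 genes with a mean of at least 10 CPM, 23.1% were stable, and no family was tested against that share. For actins 2 of 9 were stable, for tubulins 1 of 13, for glyceraldehyde-3-phosphate dehydrogenases 1 of 5, for polyubiquitins 0 of 2 and for ubiquitin-conjugating enzymes 17 of 43. Cyclophilins gave 13 of 36 and LEUNIG corepressors 5 of 9, while the 1 folylpolyglutamate synthase gene at that level had a CV of 39.8%.

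**Figure D4:**
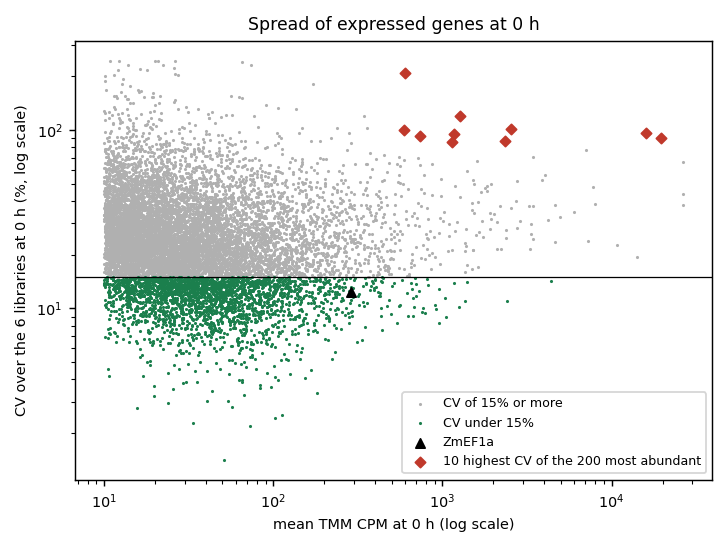
CV over the 6 libraries at 0 h (%, log scale) against mean TMM CPM (log scale) for the 11001 genes with a mean of at least 10 CPM, with genes under 15% in green and the line at 15%. The triangle is *ZmEF1a* at 12.3%, and the red diamonds are the 10 of the 200 most abundant genes with the highest CV, from 85.9 to 208%.

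Some genes were abundant in 1 seed library and all but missing in another. Of the 4470 genes with at least 50 CPM in at least 1 of the 6 libraries, 38 (0.850%) had at most 3 counts in at least 1 other 0 h library. This list was drawn up after the values were seen and no test was made on it. Both states occurred within at least 1 genotype in 24 of the 38, and in the other 14 the library at or under 3 counts and the one of at least 50 CPM were of different genotypes. In 0 of the 38 were all 3 libraries of 1 genotype at or under 3 counts with all 3 of the other above. The most abundant was a long intergenic non-coding RNA gene (Zm00001d000508, chromosome 3, 36020109 to 36020746), with 62944, 1 and 8 counts in *ereb92* and 20635, 75051 and 52071 counts in KN5585. It ranked 32 of all genes by mean share. At 6 h it had 44015, 0 and 63140 counts in *ereb92* and 66651, 56512 and 40075 counts in KN5585, so it was missing from the library of *ereb92* replicate 2 at 6 h.

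One pair of neighbouring genes shared its pattern. The *CSC1-like protein* gene Zm00001d011872, for a membrane channel family, and Zm00001d011873, annotated with a Yae1 domain, lie side by side on chromosome 8 (163438578 to 163443056 and 163443311 to 163445290). Zm00001d011872 had 0, 0 and 764 counts in *ereb92* and 0, 0 and 0 counts in KN5585, and Zm00001d011873 had 0, 0 and 1055 counts in *ereb92* and 0, 0 and 0 counts in KN5585. At 6 h both were counted in *ereb92* replicate 2 alone, with 354 and 465 counts. The *auxin-repressed protein* gene Zm00001d005804 had 0, 0 and 0 counts in *ereb92* and 2, 1104 and 782 counts in KN5585. A *serine/threonine-protein phosphatase* gene (Zm00001d046369) had 0, 11 and 6 counts in *ereb92* and 0, 848 and 822 counts in KN5585, and Zm00001d006010, without a description, 3, 1 and 1327 counts in *ereb92* and 773, 912 and 1029 counts in KN5585. The gene described as *nuclear pore complex protein NUP96* (Zm00001d002839) was missing in 1 library only, with 0, 176 and 185 counts in *ereb92* and 660, 791 and 800 counts in KN5585. Transcripts assembled by the authors made up 16 of the 38 (42.1%), against 159 of the 4470 (3.56%). Another 2 of the 38 were 5.8S ribosomal RNA genes on 1 contig, both highest in KN5585 replicate 1, the first with 9, 28 and 2 counts in *ereb92* and 4329, 17 and 21 counts in KN5585. In the 6 h libraries, 14 of the 38 again had at least 50 CPM in 1 library and at most 3 counts in another.

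**Figure D5:**
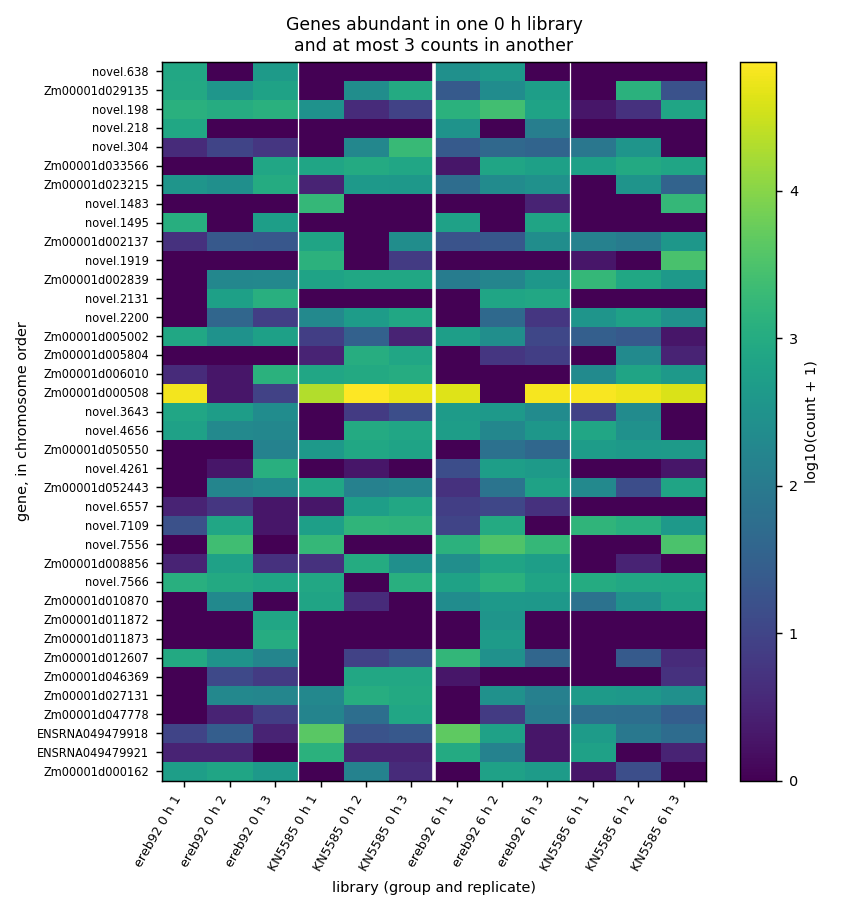
Counts, as log10(count + 1), of the 38 genes with at least 50 CPM in 1 of the 0 h libraries and at most 3 counts in another, in chromosome order (rows), in the 12 libraries (columns, 0 h left of the thick line and 6 h right of it, *ereb92* left of KN5585 within each). Dark cells are at or near 0 counts, and the yellow row is Zm00001d000508, which has 1 count in *ereb92* replicate 2 and 75051 in KN5585 replicate 2 at 0 h.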

How the data were processed

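RNA was sequenced from 12 whole-seed libraries, 6 at 0 h and 6 at 6 h after imbibition, 3 per genotype and time. The authors mapped the reads with Hisat2 (version 2.0.5) to B73 RefGen_V4 and counted them per gene with featureCounts (version 1.5.0-p3). The genome build field of the labels names a mouse genome, but the gene identifiers are those of maize. The deposited table gives counts, not normalized, and FPKM, which the authors computed from the counts, the gene length (the deposited length in bases) and 1 library size per sample. The library size implied by the FPKM was 0.792 to 1.10 times the summed counts at 0 h, so FPKM and shares were scaled differently. Multi-mapped reads and strand are not described in the sources used here.

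Shares are percentages of a library's summed counts. TMM factors came from edgeR (version 4.0.16, R 4.3.3), and the rest was computed in Python (3.11.15) with numpy (2.4.6), pandas (2.3.3) and scipy (1.17.1). A gene was detected at 10 or more counts and stable at a CV under 15% of TMM-scaled CPM over the 6 libraries at 0 h with a mean of at least 10 CPM. Class shares, genes detected after thinning to 12771663 counts and the top 10 share were compared between 0 h and 6 h by an exact two-sided permutation test of the time labels within genotype (400 arrangements), with Benjamini-Hochberg adjustment over the 22 classes. Classes were assigned in a fixed order by words in the gene names and descriptions. The genes named are the 20 with the highest mean share, the 10 next by FPKM, the 3 highest of each class, the 15 steadiest, the 5 steadiest and 10 least steady of the 200 most abundant, the reference genes, the markers, *ZmEREB92* and *ZmEF1a*; genes that were abundant in 1 library and near 0 in another, and the transcription factor domains, were chosen after their values were seen. Further genes were named outside these rules, among them *viviparous1* and the LEA genes Zm00001d034002 and Zm00001d038870. The members, lists and tests were chosen with earlier results of these data known. Counting error was given by 95% Wilson intervals, and the scripts were tested on simulated data. No sequence is printed, since no sequence table was used here.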

Additional observations from a re-analysis of the deposited data

Results flagged for a closer look

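Of 59 values tested over the 6 libraries at 0 h (class shares, shares of the named abundant genes, marker sums and the share of rRNA genes), 13 had a single library so far from the other 5 that its gap to the nearest was over 0.625 of the whole range. Chance gives about 1 such value in 20, but the 7 single genes among the 13 were part of the 10 chosen for a high CV over these same libraries, so the number is not to be set against chance. Values that share genes or a library are not independent either. The cause was not tested for any of them.

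KN5585 replicate 1 was the library far above the rest in 8 cases. Annotated rRNA genes held 0.477% of its counts, against 0.0159 to 0.0222% in the others. The mitochondrial and plastid genomes held 0.342% there, against 0.0325 to 0.0689% in the others. The mitochondrial 26S ribosomal RNA (ZeamMr002) held 0.260% there, against 0.00716 to 0.0119% in the others. Among nuclear genes, *phospholipid transfer protein homolog1* (Zm00001d023343) had 0.627%, *stress-induced protein1* (Zm00001d021901) 0.354% and the *lactoylglutathione lyase* gene (Zm00001d037637) 0.281% in that library. *Defensin-like protein1* (Zm00001d024303) had 0.171% and *defensin-like protein2* (Zm00001d024302) 0.148%. These 5 genes reached at most 0.238% in any other 0 h library.

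In *ereb92* replicate 2, storage proteins held 6.72%, *globulin2* (Zm00001d034413) 5.11% and the 5 embryo markers 10.6%. *Globulin2* is part of both sums. The other 5 libraries gave 3.25 to 5.80% for the embryo markers. In KN5585 replicate 2, the starchy endosperm markers held 0.0902%, of which the zein genes were 0.0572%. In the others the zein genes held 0.00522 to 0.0138%.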

How the results depend on the processing

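The count of class shares past the threshold was 0 in every alternative run, including the word lists before correction, which were added after the descriptions were read. That count says little of stability. In the main test a call needs several classes with a low p at once, for instance 3 at the smallest p. With the replicate block it needs 14. The run without genotype strata has more arrangements and is less limited in this way. Some class differences (0 h minus 6 h, in percentage points) changed sign. By the summed FPKM, metallothioneins gave -0.0257, translation factors -0.0208, antioxidant and detoxification enzymes -0.0659 and RNA binding and splicing genes -0.0420. Without the 5 most abundant genes, storage proteins gave 0.0270. With each library left out in turn, differences ran from -1.28 to 0.193 for storage proteins, -0.132 to 0.782 for metallothioneins, -0.00881 to 0.124 for RNA binding and splicing, -0.000922 to 0.0870 for antioxidant enzymes, -0.215 to 0.0636 for assembled transcripts and -0.0176 to 0.137 for histones. The difference in genes detected was 898 (exact p = 0.53) when 1 count was enough, and -978.75 to -342.5 at 10 counts with a library left out. KN5585 replicate 1 at 6 h had 23085 genes with at least 1 count after thinning, against 27583 to 32080 in the other 6 h libraries. It also had the highest share of rRNA genes, 1.63%. The top 10 difference was 1.35 to 3.38 points with a library left out, 4.57 by FPKM and 5.16 for the top 100. There were 1005 stable genes at a mean of at least 50 CPM, 2415 to 3448 with a library left out, and 420 in every setting. The causes were not tested.

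Replicate numbers were not taken as pairs, since the labels give them no meaning and not every pair correlated. Deviations of same-numbered libraries at 0 h and 6 h correlated with r of 0.379, 0.279 and 0.235 in *ereb92* and -0.0328, 0.213 and -0.267 in KN5585, and 4 of 6 libraries correlated best with their own number. With the replicate number as a block (64 sign flips, smallest p 0.03125), 0 classes passed, and exact p was 0.281 for genes detected (-662.5) and 0.0938 for the top 10 share (2.57). Depth limits genes near 10 counts, and the median counting CV of the stable genes was 4.14%.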

Other observations

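Other LEA transcripts held smaller shares than those named above. *Lea protein group3* (Zm00001d038870) had a mean share of 0.213% ± 0.0569 at 0 h (SD, n = 6), and the gene for late embryogenesis abundant protein D-34 (Zm00001d034002) 0.249% ± 0.0617. A shorter gene for seed maturation protein PM41 (Zm00001d044022, 258 bases) had 0.197% ± 0.0775 of the counts and a mean of 7725 FPKM. Of the 134 genes of the class, 53 (39.6%) had at least 10 counts in all 6 libraries, against 41.8% of all protein-coding genes.

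Short genes took more of the pool at 0 h than at 6 h by mean, without a test: genes under 1000 bases held 29.6% ± 3.34 of the counts at 0 h and 25.3% ± 4.01 at 6 h (SD, n = 6 each). Annotated rRNA genes held 0.0159 to 0.477% at 0 h (median 0.0188%) and 0.0320 to 1.63% at 6 h (median 0.192%). The libraries were selected for poly(A) tails, and the part of that selection in the rRNA share was not tested.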
